A study of Mus musculus with 6 samples.

Results

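The TLR4 receptor complex and its proximal adaptors are represented here by 10 genes chosen by their role: Tlr4, Ly96, Cd14, Tlr2, Myd88, Ticam1, Ticam2, Irak2, Irak3 and Traf6. All 10 are in the deposited table of 55335 mouse gene identifiers, and all 10 reached the mean level of 1 FPKM over the 6 libraries that was required for testing, as did 11270 genes in all. Poly(A) RNA was sequenced in RAW 264.7 cells, a wild-type mouse macrophage line, in 2 groups of 3 libraries. The LPS plus ultrasound group received 200 ng/ml lipopolysaccharide (LPS) for 8 h and, within that period, 10 min of pulsed ultrasound with an intensity of 50 mW/cm², a carrier frequency of 1 MHz, pulses of 200 µs repeated at 1 kHz and a duty cycle of 20%. The LPS group received the same LPS without ultrasound. Both groups were therefore exposed to the TLR4 ligand, and unstimulated cells were not analysed here. The values thus compare LPS-treated cells with and without ultrasound, and do not show how LPS altered resting cells. RAW 264.7 is a single transformed line, and whether the 3 libraries of each group are separate cultures is not stated in the labels, so the p-values refer to the scatter among these 6 libraries, part or all of which may be technical.

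LPS is taken from its carrier protein by the co-receptor CD14 and handed to MD-2, the product of Ly96, which sits on the outer part of TLR4. The paired receptor then recruits adaptors through TIR domains. At the plasma membrane MyD88 assembles IRAK kinases, which activate the ubiquitin ligase TRAF6 and the NF-kB and MAP kinase pathways. After uptake into endosomes, TRAM (the product of Ticam2) bridges TLR4 to TRIF (the product of Ticam1), which leads to IRF3 and type I interferon. Macrophages use this system to detect Gram-negative bacteria, and IRAK-M, the product of Irak3, restrains it.

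Levels are in FPKM, that is, sequenced fragments per kilobase of transcript and corrected for the number mapped in the library. Each difference is the ultrasound group minus the LPS group on the scale of log2(FPKM + 1), given ± its standard error, with limma and Benjamini-Hochberg adjustment over all tested genes. That scale understates differences of low genes. In 10 of 11 macrophage markers the mean reached 1 FPKM, led by Fcer1g at 899 FPKM. The labels' extraction text describes rat muscle, but all identifiers are mouse ones, and 0 of 10 skeletal muscle, 6 fibroblast, 5 endothelial, 6 neutrophil, 5 T cell and 5 B cell markers reached that level. Of 5 dendritic cell markers 2 did, led by Itgax at 9.80 FPKM. The marker sums of the libraries overlapped between groups for macrophage markers, at 2522 to 2827 FPKM with ultrasound and 2441 to 2743 FPKM with LPS alone. Of the other 7 lists only 2 had sums without overlap, both near 0: endothelial markers at 0.815 to 1.22 FPKM with ultrasound and 0.454 to 0.736 FPKM with LPS alone, and B cell markers at 0.133 to 0.395 FPKM with ultrasound and 0.495 to 0.770 FPKM with LPS alone. Of the 5 endothelial markers 0 were at 0 in all libraries, and of the 5 B cell markers 2 were. Their part in the results was not tested. LPS library 2 stood apart from the other 5 on the first principal component, which held 41.9% of the variance.

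No member passed the adjusted threshold of 0.05, but 4 members, Ticam2, Irak2, Ticam1 and Ly96, were lower in every ultrasound library than in every LPS library. Across all tested genes 2 were called, both higher, which is 0.0177%, and 0 were lower. With the replicate number as a block 13 genes were called, or 0.115%, with 0 members among them. The 4 members without overlap stand against a background of 13.4% of tested genes that lay lower without overlap, and 0 members lay higher without overlap, against 9.8%. At an unadjusted limma p below 0.05, the same 4 members were lower and 0 higher, against 9.16% and 6.18% of tested genes. Of all tested genes past that p, 40.3% were higher, and 30.2% when libraries were scaled to equal sums. The members' median log2 fold change was -0.21, beside -0.02 for all tested genes, and without LPS library 3 the members' median was -0.12. Of the members 8 were below 0 and 2 above, where 53.9% of tested genes were below 0. Since the genes of this pathway were chosen with earlier results of these data known, these shares describe the list and are no test of it. In bulk RNA, a lower share of expressing cells and less RNA per cell cannot be told apart.

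**Figure D1:**
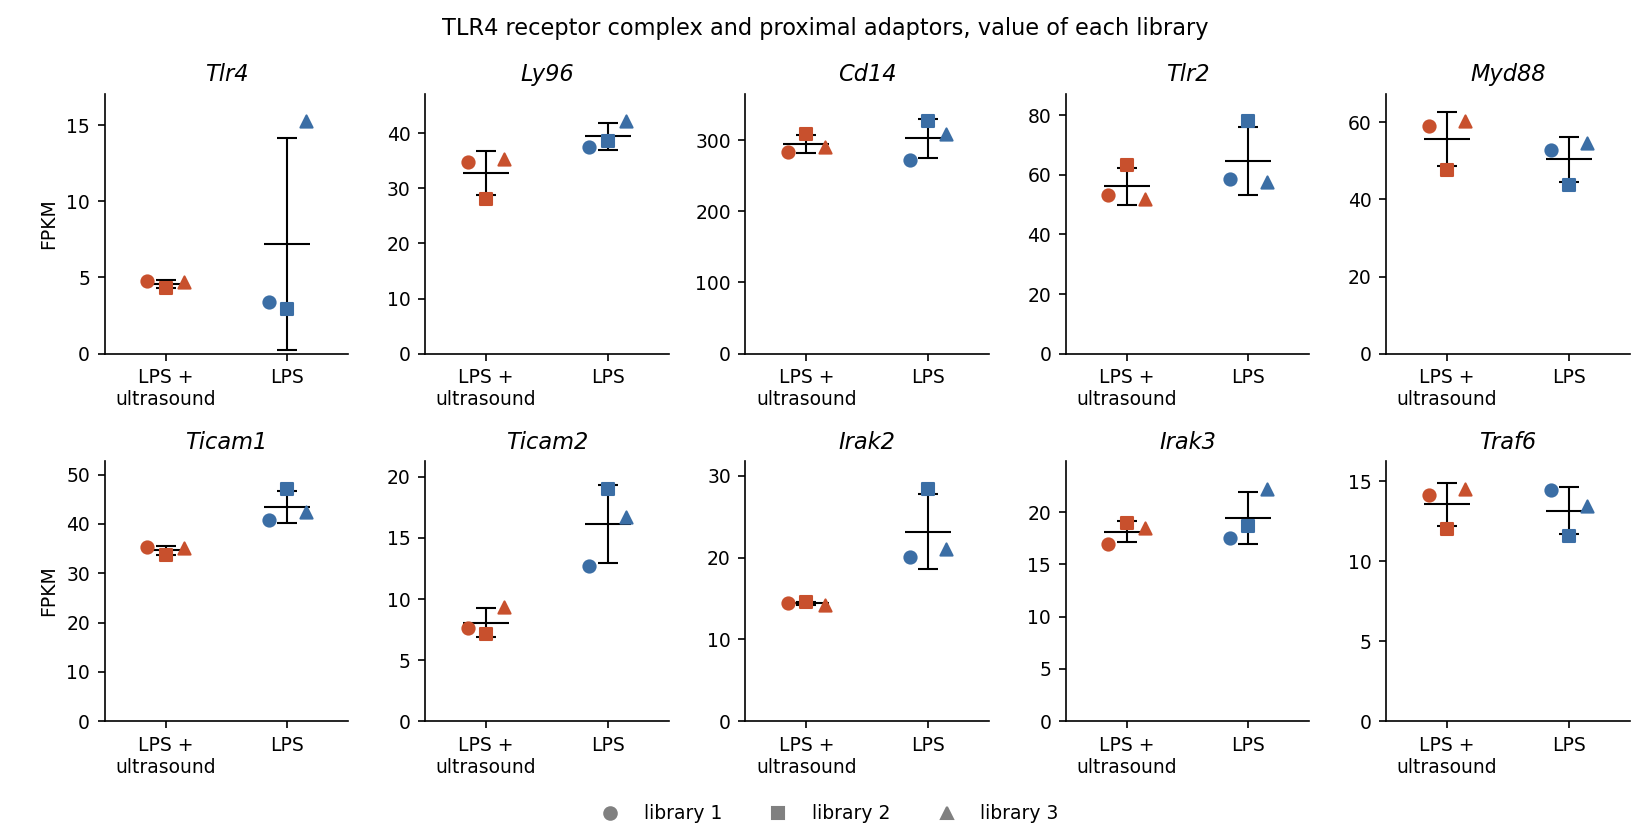
FPKM of each of the 10 genes in each library, LPS plus ultrasound on the left and LPS on the right of each panel, on linear axes that start at 0; bars are the mean ± SD of 3 libraries and marker shapes give the library number. The groups separate in Ticam2, Irak2, Ticam1 and Ly96, and Tlr4 has a single high value, 15.2 FPKM in LPS library 3.

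Among the receptor genes, Cd14 was by far the most abundant member and Tlr4 the least. Cd14, the gene of the LPS-binding co-receptor, had 284, 308 and 290.0 FPKM in the ultrasound libraries 1, 2 and 3, against 272, 326 and 309 FPKM in the LPS libraries. The groups overlapped fully, with a mean of 294 ± 12.5 FPKM with ultrasound and 302 ± 27.7 FPKM with LPS alone (SD, n = 3 each). The difference was -0.04 ± 0.09 on the log2 scale, with a 95% interval of -0.24 to 0.17 (limma, Benjamini-Hochberg adjusted p = 0.86), and its sign turned to 0.04 under quantile normalization and to 0.02 without LPS library 2.

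Tlr4, the signalling receptor gene, had 4.74, 4.30 and 4.68 FPKM in the ultrasound libraries, against 3.41, 2.95 and 15.2 FPKM in the LPS libraries. A single library thus set the LPS mean of 7.20 ± 6.97 FPKM, beside 4.57 ± 0.238 FPKM with ultrasound (SD, n = 3 each). The log2 fold change of -0.24 ± 0.51 had a 95% interval of -1.46 to 0.99 (limma, Benjamini-Hochberg adjusted p = 0.85) and turned to 0.42 without LPS library 3 (limma, adjusted p = 0.29). In the other 2 LPS libraries Tlr4 lay below all 3 ultrasound libraries. GENCODE M21 lists 4 Tlr4 transcripts on chromosome 4, of which 2 are coding, with 1866 and 4077 bases, and FPKM shifts with the transcript that reads are credited to. Whether this bears on LPS library 3 was not tested.

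Ly96, which encodes the LPS-binding partner of TLR4, had 34.8, 28.1 and 35.3 FPKM with ultrasound, against 37.5, 38.5 and 42.1 FPKM with LPS alone. The groups did not overlap, though the gap between the nearest libraries, 35.3 and 37.5 FPKM, was smaller than the spread within either group. Its log2 fold change was -0.27 ± 0.10, with a 95% interval of -0.51 to -0.02 (limma, Benjamini-Hochberg adjusted p = 0.30), and it was -0.16 without ultrasound library 2, the lowest of the 6. Tlr2, the receptor for bacterial lipoproteins, is induced by LPS in macrophages and was second in level. It had 53.4, 63.3 and 51.9 FPKM with ultrasound, against 58.5, 77.9 and 57.4 FPKM with LPS alone. The ranges overlapped, since the library numbered 2 was the highest in each group, while each ultrasound library was below the LPS library of its number. For Tlr2 the log2 fold change was -0.19 ± 0.14, with an interval of -0.51 to 0.13 (limma, Benjamini-Hochberg adjusted p = 0.52). Leaving out LPS library 2 brought it to -0.05.

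Of the adaptor genes, both genes of the TRIF branch lay lower in every ultrasound library, while the groups overlapped for Myd88. Ticam2, the gene of the bridging adaptor TRAM, had 7.64, 7.14 and 9.39 FPKM with ultrasound, against 12.7, 19.0 and 16.7 FPKM with LPS alone. The highest ultrasound library was below the lowest LPS library, and the ultrasound mean was 0.498 times the LPS mean (8.06 ± 1.18 FPKM and 16.2 ± 3.18 FPKM, SD, n = 3 each). The log2 fold change of -0.91 ± 0.16, with an interval of -1.29 to -0.54, was the largest of the 10 and had the rank 50 among 11270 genes by p (limma, unadjusted p = 0.00062, Benjamini-Hochberg adjusted p = 0.14). It was -0.67, -1.30 and -0.77 in the pairs numbered 1, 2 and 3, and stayed between -1.06 and -0.79 with any 1 library left out.

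Ticam2 lies on chromosome 18 beside Tmed7, a gene for a cargo receptor of the early secretory pathway, and 838 of its 5792 exonic bases in GENCODE M21, 14.5%, are also exonic in Tmed7 on the same strand. Reads from those bases could belong to either gene. Tmed7 itself had 26.0, 23.6 and 26.3 FPKM with ultrasound, against 27.5, 28.9 and 26.5 FPKM with LPS alone. Tmed7 too was lower in every ultrasound library, with 26.3 and 26.5 FPKM in the nearest libraries of the groups. Its log2 fold change of -0.12 ± 0.08 was smaller than that of Ticam2, and a difference between these 2 values was not tested.

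Ticam1, the gene of the adaptor TRIF, had 35.3, 33.6 and 35.1 FPKM with ultrasound, against 40.9, 47.1 and 42.5 FPKM with LPS alone. The ultrasound libraries lay within 2 FPKM of each other and all below the LPS libraries. The difference was -0.32 ± 0.08 on the log2 scale, with an interval of -0.49 to -0.14 (limma, unadjusted p = 0.0039, Benjamini-Hochberg adjusted p = 0.19), and ran from -0.36 to -0.26 with any 1 library left out. Ticam1 has 1 annotated transcript, of 2992 bases, on chromosome 17, so its value does not depend on an assignment between transcripts.

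Myd88, the adaptor shared by most Toll-like receptors and the interleukin-1 receptor, had 58.9, 47.6 and 60.3 FPKM with ultrasound, against 52.8, 43.7 and 54.6 FPKM with LPS alone. The groups overlapped, and the library numbered 2 was the lowest in each. Within each number the ultrasound library was higher, by 0.16, 0.12 and 0.14 on the log2 scale. The log2 fold change of 0.14 ± 0.12 did not pass without the block or with it (limma, Benjamini-Hochberg adjusted p = 0.61 and 0.13), and was 0.04 without LPS library 2. Of the exonic bases of Myd88, 11.3% lie opposite exons of Acaa1a, and no source used here says whether the counting used strand.

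Of the IRAK genes, Irak2 separated the groups and Irak3 did not. Irak2, the gene of an IRAK family protein that passes the signal from MyD88 to TRAF6, had 14.4, 14.6 and 14.2 FPKM with ultrasound, against 20.1, 28.4 and 21.1 FPKM with LPS alone. The ultrasound libraries were nearly alike (14.4 ± 0.211 FPKM) while the LPS libraries spread (23.2 ± 4.55 FPKM, SD, n = 3 each), and the ultrasound mean was 0.621 times the LPS mean. The log2 fold change of -0.64 ± 0.13, with an interval of -0.94 to -0.33, had the rank 106 by p (limma, unadjusted p = 0.0016, Benjamini-Hochberg adjusted p = 0.17). It was -0.45, -0.92 and -0.54 in the pairs numbered 1, 2 and 3, and -0.49 without LPS library 2. GENCODE M21 lists 9 Irak2 transcripts, of which 3 are coding, with 1734 to 3196 bases. Whether the transcript that reads are credited to bears on the Irak2 difference was not tested.

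Irak3, the gene of the inhibitory IRAK-M, had 17.0, 19.0 and 18.5 FPKM with ultrasound, against 17.5, 18.6 and 22.2 FPKM with LPS alone. The groups overlapped, with a log2 fold change of -0.09 ± 0.10 and an interval of -0.33 to 0.15 (limma, Benjamini-Hochberg adjusted p = 0.69), and was 0.004 without LPS library 3. Traf6, the ubiquitin ligase gene below the IRAK kinases, had 14.1, 12.0 and 14.5 FPKM with ultrasound, against 14.4, 11.6 and 13.5 FPKM with LPS alone. These ranges overlapped almost fully, and the log2 fold change of 0.04 ± 0.11 had an interval of -0.22 to 0.30 (limma, Benjamini-Hochberg adjusted p = 0.87). Its sign turned to -0.04 without LPS library 2.

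Ticam2 and Irak2 were the only members called under any alternative, and only with sample weights, a setting that trusts consistent libraries more. They fell in that fit, at -0.86 and -0.55 on the log2 scale (limma with sample weights, Benjamini-Hochberg adjusted p = 0.034 and 0.036), in which 1.98% of all tested genes were called and 1.35% were called lower. Over all 16 alternatives the adjusted limma p ran from 0.034 to 0.39 for Ticam2 and from 0.036 to 0.50 for Irak2.

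**Figure D2:**
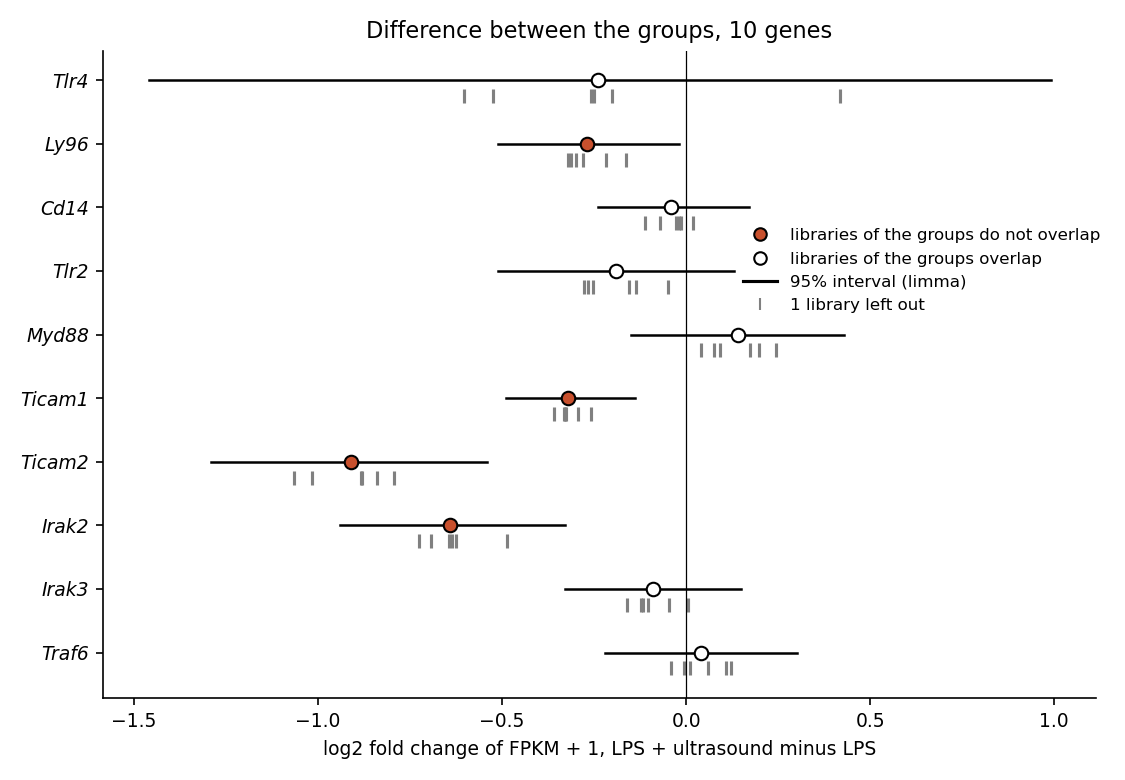
Difference between the groups for each of the 10 genes, as log2 fold change of FPKM + 1, LPS plus ultrasound minus LPS (circles), with the 95% limma interval (lines) and the value with 1 library left out (grey ticks). Filled circles mark the 4 genes whose groups do not overlap, whose intervals lie below 0; Tlr4 has the widest interval, -1.46 to 0.99.

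The order of the levels, compared per transcript length as means over the 6 libraries, was Cd14 (298 FPKM), Tlr2 (60.4), Myd88 (53.0), Ticam1 (39.1), Ly96 (36.1), Irak3 (18.8), Irak2 (18.8), Traf6 (13.4), Ticam2 (12.1) and Tlr4 (5.89). Only Cd14 and Tlr2, and Ly96 and Irak3, were neighbours whose ranges over the 6 libraries did not overlap. Every other pair of neighbours overlapped. LPS library 2 was the highest LPS library for 5 of the 10 members, Tlr2, Cd14, Ticam1, Ticam2 and Irak2, and LPS library 3 for 4, so LPS library 2 was not the highest throughout.

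Ratios of members within a library do not change when a library is scaled as a whole, and 4 were compared. The ratio of Irak3 to Irak2, the inhibitory over the signal-passing IRAK gene, was 1.18, 1.30 and 1.30 with ultrasound, against 0.871, 0.656 and 1.06 with LPS alone. All 3 ultrasound libraries were above all 3 LPS libraries, with a difference of 0.57 on the log2 scale (exact two-sided permutation test, p = 0.10, adjusted over 4 ratios p = 0.20). The ratio of Ticam1 to Myd88 was 0.599, 0.707 and 0.583 with ultrasound, against 0.774, 1.08 and 0.777 with LPS alone. It was lower in every ultrasound library, with a difference of -0.46 on the log2 scale (exact two-sided permutation test, p = 0.10, adjusted over 4 ratios p = 0.20). With 3 libraries against 3, 0.10 is the smallest p this test can give, so neither ratio could pass 0.05. Without LPS library 2 the Ticam1 to Myd88 difference was -0.31.

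The ratios with Tlr4 below the line followed its high value in LPS library 3. Cd14 to Tlr4 was 59.9, 71.6 and 62.0 with ultrasound, against 79.9, 110.7 and 20.3 with LPS alone, and Tlr2 to Tlr4 was 11.3, 14.7 and 11.1 with ultrasound, against 17.2, 26.4 and 3.77 with LPS alone. Both groups' values overlapped in each, with differences of 0.19 and 0.03 on the log2 scale (exact two-sided permutation test, p = 1 for each). Without LPS library 3 these differences became -0.55 and -0.80.

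**Figure D3:**
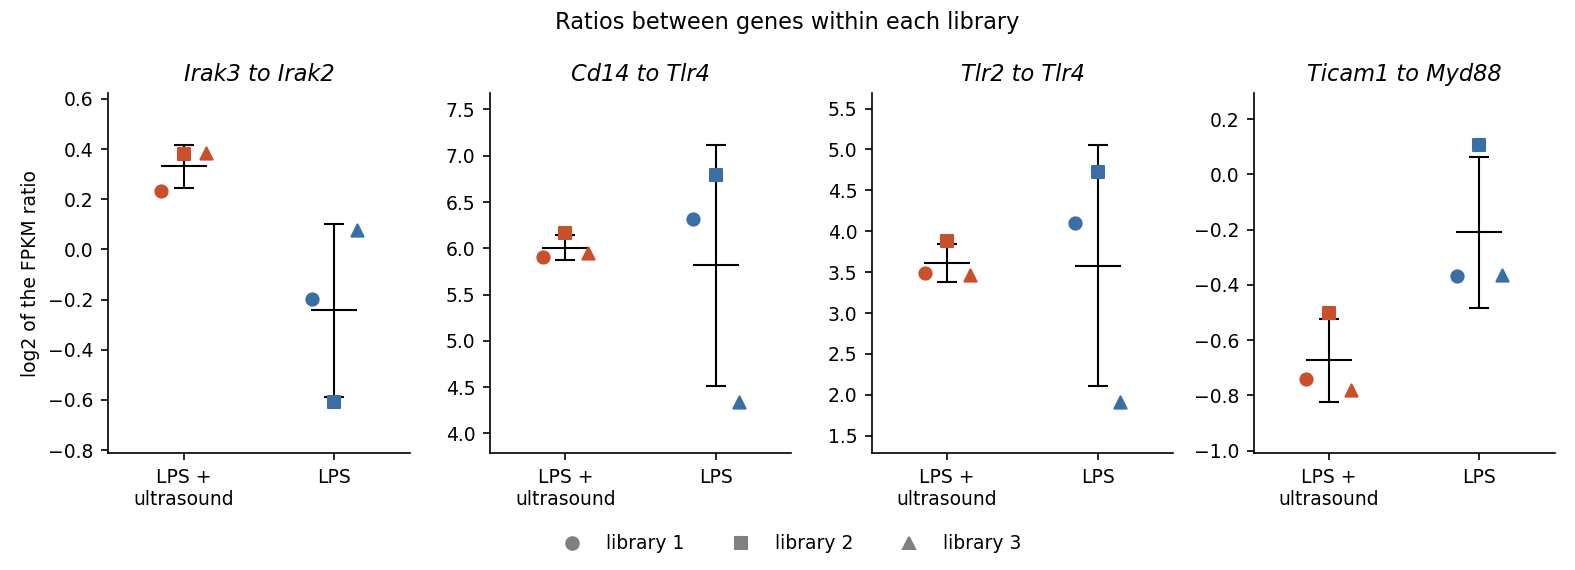
Ratio of FPKM between 2 genes within each library, on a log2 axis, LPS plus ultrasound on the left and LPS on the right of each panel; bars are the mean ± SD of 3 libraries. The groups separate for Irak3 to Irak2 (difference 0.57) and Ticam1 to Myd88 (difference -0.46), and overlap for both ratios to Tlr4.

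Promoter sequences are shown for Irak2 and Ticam1, which lay lower together, and for Tlr2 and Myd88, a receptor and an adaptor gene whose groups overlapped. RefSeq's promoter table on GRCm38.p6 held 6 of the 10 members. Printed are the 250 bases before the annotated start, 5′ to 3′ on the gene's strand, at chr6:113638217-113638466 (plus strand) for Irak2, chr17:56276768-56277017 (minus strand) for Ticam1, chr3:83841609-83841858 (minus strand) for Tlr2 and chr9:119340019-119340268 (minus strand) for Myd88. All bases are in lower case, since the 1 motif searched had no match in them.
Irak2: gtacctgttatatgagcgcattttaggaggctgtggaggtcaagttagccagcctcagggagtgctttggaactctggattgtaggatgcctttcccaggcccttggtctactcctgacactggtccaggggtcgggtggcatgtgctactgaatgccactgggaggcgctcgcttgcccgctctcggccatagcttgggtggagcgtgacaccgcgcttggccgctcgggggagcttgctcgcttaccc
Ticam1: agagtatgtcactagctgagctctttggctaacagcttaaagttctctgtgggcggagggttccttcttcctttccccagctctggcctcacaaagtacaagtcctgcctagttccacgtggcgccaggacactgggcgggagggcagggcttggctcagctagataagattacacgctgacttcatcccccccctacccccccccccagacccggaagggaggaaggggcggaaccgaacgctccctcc
Tlr2: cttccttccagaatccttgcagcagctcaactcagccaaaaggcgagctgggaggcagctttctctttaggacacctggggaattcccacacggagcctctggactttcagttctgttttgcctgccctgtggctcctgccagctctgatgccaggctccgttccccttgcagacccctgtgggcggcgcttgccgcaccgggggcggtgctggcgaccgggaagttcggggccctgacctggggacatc
Myd88: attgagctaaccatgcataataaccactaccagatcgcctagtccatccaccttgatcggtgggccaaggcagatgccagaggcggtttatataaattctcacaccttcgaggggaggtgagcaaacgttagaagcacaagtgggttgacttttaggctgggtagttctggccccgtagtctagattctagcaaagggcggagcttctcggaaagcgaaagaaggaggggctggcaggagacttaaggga

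The motif was TGANTCA, a form of the AP-1 site, searched on both strands. Of 32851 promoter windows of the same length, 6.75% held it. None of the 7 windows of the 6 members in the table did, which says only that these letters are not there. G and C made up 60% of the bases for Irak2, 59.6% for Ticam1, 62.8% for Tlr2 and 51.2% for Myd88.

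Other genes of the Toll-like receptor system, in 6 lists without the 10 members, gave 0 called genes in either direction. Of 12 other Toll-like receptor and RP105 complex genes, 8 were tested, 4 were below 0 and 4 above, with a median log2 fold change of 0.02. Tlr13, the receptor for bacterial ribosomal RNA, had 6.59, 7.16 and 7.17 FPKM with ultrasound, against 4.28, 3.91 and 4.89 FPKM with LPS alone. These groups did not overlap, at a log2 fold change of 0.58 ± 0.10 (limma, Benjamini-Hochberg adjusted p = 0.13). Ly86, which encodes the MD-1 partner of RP105, and Tlr1, the partner of TLR2, had log2 fold changes of -0.18 ± 0.09 and -0.36 ± 0.18. Ly86 stood at -0.11 without ultrasound library 2, and Tlr1 at -0.20 without LPS library 2 and -0.24 without ultrasound library 1. Here 1 of the 8 tested genes, Ly86, lay lower without overlap and 1, Tlr13, higher, against 13.4% and 9.8% of all tested genes. Of 18 genes for receptor folding, trafficking and LPS handling, 15 were tested, 7 below 0 and 8 above, with a median of 0.02. Rab7b, a GTPase gene linked to the lysosomal delivery of TLR4, had 12.9, 11.5 and 13.7 FPKM with ultrasound, against 9.24, 7.05 and 8.92 FPKM with LPS alone (0.55 ± 0.12, limma, Benjamini-Hochberg adjusted p = 0.18). The chaperone gene Unc93b1, which serves endosomal Toll-like receptors, had -0.25 ± 0.08 and the dynamin gene Dnm2 -0.17 ± 0.07, both with groups that did not overlap. With Tmed7, 3 of the 15 tested genes lay lower without overlap and 1, Rab7b, higher, against 13.4% and 9.8% of all tested genes.

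Of 25 genes for proximal kinases, ubiquitin ligases and partners, 23 were tested, 12 below 0 and 11 above, with a median of 0.00, and 4 lay lower and 4 higher without overlap, against 13.4% and 9.8% of all tested genes. Ikbke, a kinase gene of the IRF3 branch, had 20.2, 26.0 and 22.4 FPKM with ultrasound, against 27.1, 37.4 and 34.3 FPKM with LPS alone (-0.50 ± 0.14, limma, Benjamini-Hochberg adjusted p = 0.22). Irak1bp1, which encodes an IRAK1-binding protein, and Peli1, a ubiquitin ligase gene that modifies IRAK proteins, had -0.27 ± 0.08 and -0.25 ± 0.08. Among 27 genes listed as inhibitors of the pathway, 26 were tested, 19 below 0 and 7 above, with a median of -0.09. Whether each of them, Nfkbiz included, inhibits the pathway in these cells was not tested. The lowest p of the list belonged to the cytokine-signalling suppressor Socs3 (-0.46 ± 0.09), the transcriptional repressor Atf3 (-0.97 ± 0.22) and the IkB family gene Nfkbiz (-0.64 ± 0.15). None passed the threshold (limma, Benjamini-Hochberg adjusted p = 0.15, 0.18 and 0.18). In each of them the ultrasound libraries lay below all LPS libraries. Of the 26 tested genes of this list, 6 lay lower and 0 higher without overlap, against 13.4% and 9.8% of all tested genes. The list shares Nfkbia and Tnfaip3 with the MyD88-linked targets, so both genes count in each list.

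Among genes downstream of the 2 adaptor branches, 20 of 21 tested lay below 0, where 53.9% of all tested genes did. These lists too were chosen with earlier results of these data known, so their shares describe them and are no test. Of 13 targets linked to MyD88, 12 were tested, 11 below 0 and 1 above, with a median of -0.81. Of these the lowest p belonged to Ptgs2 (-1.67 ± 0.41), Il12b (-0.85 ± 0.27) and Nfkbia (-0.68 ± 0.23). Of 12 targets linked to TRIF, 9 were tested and all 9 were below 0, with a median of -0.55, and the lowest p belonged to Mx2 (-0.43 ± 0.13), Irf7 (-0.45 ± 0.23) and Isg15 (-0.55 ± 0.30). These are not the farthest from 0, since Ifit2 stood at -1.01 and Ifit1 at -0.98, both picked after their values were seen. Without LPS library 2, Il12b was -0.55, Nfkbia -0.41, Irf7 -0.19 and Isg15 -0.29, and Isg15 was -0.32 without ultrasound library 3. Of the 12 MyD88 targets 4 lay lower and 1 higher without overlap, and of the 9 TRIF targets 1 lay lower and 0 higher. Among all tested genes 13.4% lay lower and 9.8% higher without overlap. The higher MyD88 target was Nlrp3, picked after its values were seen, at 0.19 ± 0.07 (limma, Benjamini-Hochberg adjusted p = 0.28). The medians moved to -0.48 and -0.29 without LPS library 2, and to -0.70 and -0.56 without both libraries numbered 2, and a difference between the branches was not tested. With the replicate block, 1 of the 12 MyD88 targets and 2 of the 9 TRIF targets passed the adjusted threshold, where 0.115% of all tested genes did. These were the chemokine genes Ccl4 and Ccl5 and the interferon-induced gene Ifit1, which were picked after their values were seen (limma with the replicate block, Benjamini-Hochberg adjusted p = 0.023, 0.035 and 0.035). In each of them the libraries of the groups overlapped. None passed without the block (limma, Benjamini-Hochberg adjusted p = 0.37, 0.45 and 0.43), so the calls rest on pairing by library number. Ifnb1, the interferon-beta gene, was listed at 0 in 5 libraries and at 0.0455 FPKM in LPS library 2.

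**Figure D4:**
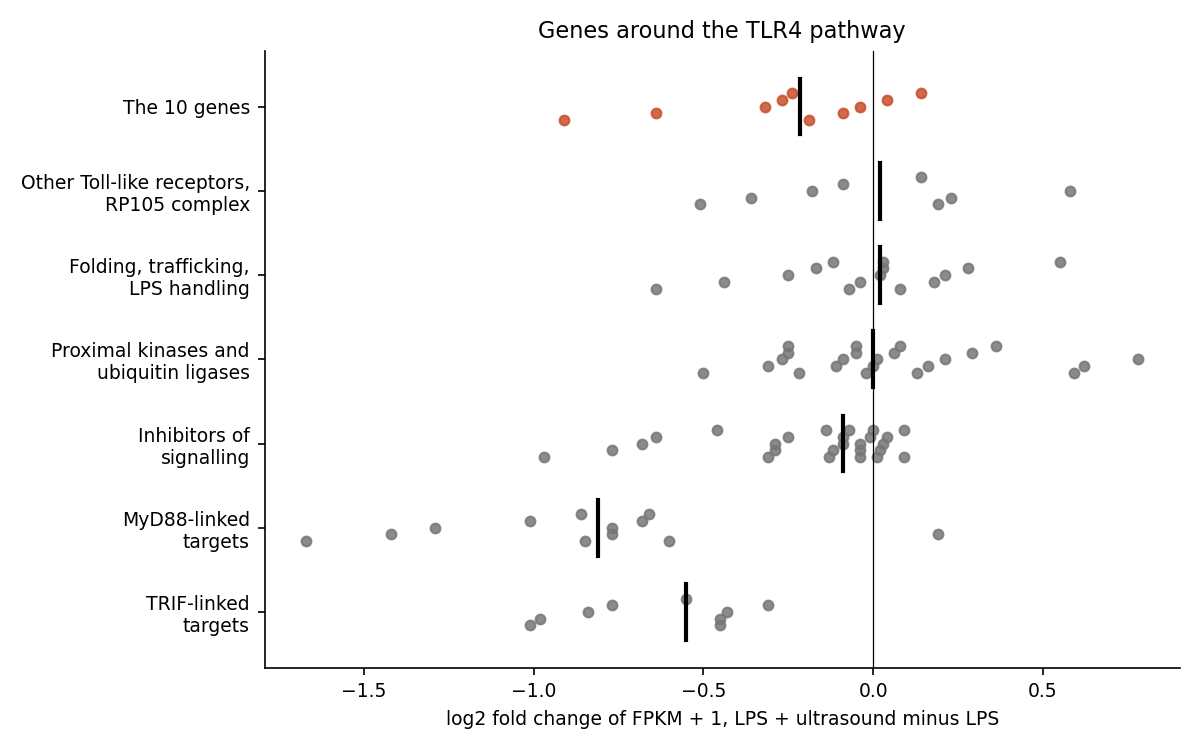
Log2 fold change of FPKM + 1, LPS plus ultrasound minus LPS, for the 10 genes (top) and the tested genes of 6 lists around the pathway, each point a gene and each bar the median of its row. The medians of the receptor, trafficking and kinase lists lie at 0.00 to 0.02, that of the 10 genes at -0.21, and those of the targets linked to MyD88 and TRIF at -0.81 and -0.55.

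The members that varied most over the 6 libraries were Tlr4, Ticam2 and Irak2, with SDs of 0.73, 0.54 and 0.39 on the log2 scale. For each, the genes with the nearest profile were taken from 7216 named genes averaging 5 FPKM or more, as the root mean square distance between profiles centred on their 6-library means. Nearest to Ticam2 were Malt1, a gene for a paracaspase, and Fgr, a Src family kinase gene, both at 0.09 on the log2 scale, and the cyclin gene Ccne1 at 0.14, where the median gene lay at 0.51. Nearest to Irak2 were Grhpr at 0.05, Bcar3 at 0.06 and Rftn1 at 0.06, against a median of 0.37. For Tlr4 the distances were larger, with Suz12 at 0.31 and 1810055G02Rik at 0.35, against a median of 0.68. None of these 8 genes is a member. The distances describe 6 libraries and were not tested.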

How the data were processed

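The deposited table holds FPKM values that the authors computed for 55335 mouse identifiers, 1 column per library. Libraries were paired-end poly(A) RNA, per the labels. No source used here names the aligner, the quantifier or the mouse build, and the submitters' processing notes give only a rat build, mRatBN7.2. FPKM sums were 278871 to 292200 per library. Low values rose in steps which, if 1 step were 1 fragment, would put the depth at 25200000 to 29300000 fragments per library. Counts were not recovered, so no counting error is given. Symbols and exons come from GENCODE M21 (55154 identifiers matched), and chromosomes are given without gene coordinates.

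The filter of 1 FPKM on the mean kept 11270 genes and removed 44065. The groups were compared in 1 fit with limma 3.58.1 (R 4.3.3), two-sided, on log2(FPKM + 1) with trended, robust variance moderation and a threshold of 0.05; the fit was tested on simulated data. Ratios were compared with an exact permutation test. The members, lists, ratios and naming rule were chosen with earlier results of these data known. The rule named all members, the 3 smallest p per list, the 3 nearest genes of the 3 most variable members (1 of them is not reported here) and the highest markers. The promoters were picked after values were seen. The replicate block treated same-numbered libraries as pairs, which the labels do not state. Correlations across genes of deviations from group means were 0.18, 0.44 and 0.41 for same-numbered libraries and -0.40 to 0.06 for others. They come from the same values that the block was fitted to, and are no test of pairing. Alternatives were the pseudocount, filter, scaling, moderation, weights, the block and leaving out libraries.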

Additional observations from a re-analysis of the deposited data

How the results depend on the processing

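Of 446 values of single genes under 16 alternatives, 433 kept their direction and their side of the threshold, 7 passed it with sample weights (Ticam2, Irak2, Tlr13, Rab7b, Socs3, Atf3 and Nfkbiz) and 6 changed sign. Cd14 changed sign under quantile normalization, to 0.036, and without LPS library 2, and ran from -0.111 to 0.019 with 1 library left out. Traf6 changed sign without ultrasound library 3 and without LPS library 2, and ran from -0.042 to 0.121. Tlr4 and Irak3 did so without LPS library 3, and ran from -0.603 to 0.417 and from -0.160 to 0.004. Genes called, 2 in the report, were 1 with a filter at 5 FPKM, 5 with equal sums, 223 with sample weights, 13 with the replicate block, 2 to 8 with 1 library left out and 6 without both libraries numbered 2. Members called were 2 with sample weights and 0 under every other alternative, the replicate block included, and the block changed no member's call. The Tlr2 to Tlr4 difference was -0.041 under quantile normalization and -0.80 to 0.61 with 1 library left out, and the Cd14 to Tlr4 difference -0.55 to 0.68; the cause was not tested, beyond the value of LPS library 3. The ratios of Irak3 to Irak2 and of Ticam1 to Myd88 kept their direction in every library left out, at 0.39 to 0.74 and -0.55 to -0.31. The members' median ran from -0.28 to -0.12 and 4 to 6 members lay apart with 1 library left out. Among genes with an unadjusted p below 0.05 the share that was higher was 40.3%, and 30.2%, 44.1% and 48.6% under equal sums, median-ratio scaling and quantile normalization. Without counts, counting precision is unknown.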
